A study of Mus musculus with 4 samples.

Results

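The genes described here were 10 members of the BCL2 family and its mitochondrial relatives, Bcl2, Bcl2l1, Mcl1, Bax, Bak1, Bnip3, Bnip3l, Bbc3, Bcl2l11 and Bid. They were measured in adult mouse heart. A probe set, the unit that an Affymetrix array reports for a transcript, was taken as a member when its annotated gene symbol was exactly one of these names. By this rule 8 of the 10 genes had at least 1 probe set, and these 8 genes held 27 of the 45037 probe sets tested. No probe set carried the symbol Bax alone, so Bax was not analysed here. Bnip3l was annotated only on 3 probe sets that also carried a second symbol, Bnip3l-ps, and no value is given for it.

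The study asked what loss of the RNA helicase RHAU, encoded by Dhx36, does to gene expression in the heart. Total RNA from whole hearts was hybridised to 4 Affymetrix whole-genome mouse arrays. The 2 arrays labelled Rhau KO came from mice of genotype CAAG-ERT2-Cre;Rhau F/F, and the 2 labelled Control came from Rhau F/F mice without the Cre. All mice were adult C57BL/6J with floxed Rhau alleles. Both genotypes received 5 doses of tamoxifen at 2 months of age, and hearts were collected 2 months after that. The ERT2-Cre is a tamoxifen-inducible recombinase that is not restricted to cardiomyocytes, so every cell type of the heart could lose Rhau. The study used littermates as controls, but nothing states that the replicates of a group were hearts of separate animals, so the spread between arrays may be technical. In bulk tissue, fewer cells of a type and less RNA per cell cannot be told apart.

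The BCL2 family sets whether the outer mitochondrial membrane is opened during apoptosis. Bcl2, Bcl2l1 (BCL-xL) and Mcl1 are antiapoptotic and hold the pore-forming effectors Bax and Bak1 in check. The BH3-only proteins Bbc3 (PUMA), Bcl2l11 (BIM) and Bid engage both sides, while Bnip3 and Bnip3l are receptors that also mark damaged mitochondria for autophagy. Cardiomyocytes are rich in mitochondria and are hardly replaced in the adult, and Mcl1 is needed for their survival in the mouse.

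The labels and the tissue were checked first. Dhx36, the deleted gene, was higher in the arrays labelled Rhau KO on 3 of 3 probe sets, which runs against the labels. The log2 differences of Dhx36 on the 3 probe sets were 0.63, 1.13 and 1.82. On that with the largest difference its intensity was 627 and 537 in Rhau KO and 156 and 172 in Control. Whether its probes lie inside the deleted part was not determined. On the array labelled Control replicate 1 most heart muscle markers were low. The summed intensity of 10 ventricular cardiomyocyte markers was 87510 there and 400582 to 418496 on the others. Most of the 87510 came from Myl2, at 37359, and Myl3, at 37087, which were not far below the other arrays. Actc1 read 12364 there, and the rest read at most 248, with Myh6 at 171. The sum of 10 fast skeletal muscle markers was 427132 there and 363 to 616 on the others. The endothelial and macrophage lists, of 5 genes each, were also lower there, at 3518 against 9320 to 9994 and at 5158 against 11144 to 11625. The 6 fibroblast markers summed to 39528 to 49737 over the 4 arrays, but single genes went opposite ways on Control replicate 1. Col1a1 read 938 there against 388 to 449 on the others, and Lum read 2490 against 6100 to 10306. Control replicate 2 carried raised heat shock transcripts, whose 6 genes summed to 136020 against 18479 to 38307 on the other 3. All contrasts below are therefore given as labelled Rhau KO against labelled Control, and with Control replicate 1 or 2 left out where that changes the result.

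Across the family, Bcl2l11 had the higher mean in Rhau KO on 5 of 5 probe sets, though not past the adjusted threshold. Mcl1 differed little between the labels on any of its 6 probe sets. Bcl2 and Bnip3 depended on which Control array was used. With all 4 arrays, 0 of the 27 member probe sets reached an adjusted p under 0.05 (limma, Benjamini-Hochberg over all probe sets), and 0% of all probe sets did. Their adjusted p-values ran from 0.892 to 0.998. At an unadjusted p under 0.05, 2 member probe sets passed, both of Bcl2l11, where 4.2% of all probe sets passed. A fold of 2 with that p was met by 1 member probe set, again of Bcl2l11, and by 3.36% of all.

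The labels split evenly over the family. The mean log2 intensity was higher in Rhau KO on 13 member probe sets and lower on 14, while 56.6% of all probe sets were higher. The count of higher member probe sets was 9 under median centring and 15 under quantile normalization, which put the median log2 difference of all probe sets at -0.03 and 0.02. Both Rhau KO arrays lay above both Control arrays on 6 member probe sets, against 21.4% of all probe sets. Both lay below on 3, against 14% of all, and the arrays overlapped on 18. The median log2 difference was -0.01 over the members and 0.09 over all probe sets. Without Control replicate 1 it was -0.15 over the members and 0.03 over all. With 2 arrays in each group an exact permutation test cannot give a p below 0.333, so no such test is reported for single probe sets.

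**Figure D1:**
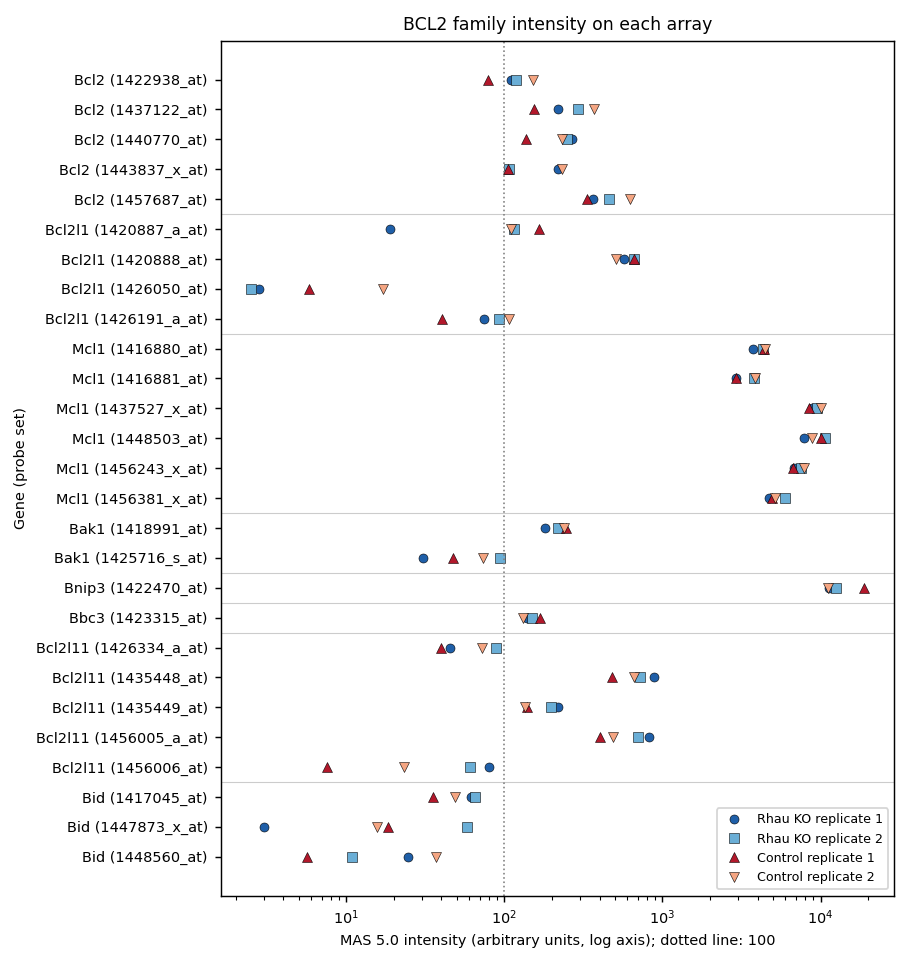
MAS 5.0 intensity (log axis) of the 27 member probe sets, 1 row each, on the 2 arrays labelled Rhau KO (blue circle and square) and the 2 labelled Control (red and orange triangles), with a dotted line at 100. The Mcl1 symbols lie close together, the blue symbols of Bcl2l11 lie right of the triangles on 4 of its 5 rows, and Control replicate 1 is the leftmost symbol on all 5 Bcl2 rows.

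Bcl2l11 encodes BIM, a BH3-only protein that binds the antiapoptotic members and activates the effectors. It was measured by 5 probe sets, 3 of them with a mean intensity of 100 or more. Probe set 1456005_a_at read 819.7 and 700.2 in Rhau KO against 405 and 485 in Control. Both Rhau KO arrays were higher than both Control arrays. The group means were 760 ± 84.5 (SD, n = 2) and 445 ± 56.7 (SD, n = 2). Rhau KO minus Control came to a log2 difference of 0.77 (SE 0.25), with a 95% interval of 0.12 to 1.43 and an adjusted p of 0.892.

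Probe set 1435449_at read 218 and 199 in Rhau KO against 139.9 and 136 in Control. The groups again did not overlap, and both Control arrays were close to each other. Probe set 1435448_at read 879 and 720.1 in Rhau KO against 479 and 658 in Control. Here the Rhau KO arrays were also the higher pair, but Control replicate 2 came near Rhau KO replicate 2. The log2 differences were 0.59 (SE 0.32) and 0.50 (SE 0.28), and the 95% intervals of both reached below 0, to -0.23.

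The remaining Bcl2l11 probe sets were dim, with every array under 100. Probe set 1456006_at read 79.7 and 61.0 in Rhau KO against 7.60 and 23.0 in Control. Its groups did not overlap, and Control replicate 1 was by far the lowest. Here the log2 difference came to 2.40 (SE 0.79), with a 95% interval of 0.36 to 4.44, and it fell to 1.13 when a pseudocount of 32 was added to every intensity. Probe set 1426334_a_at read 45.3 and 88.4 in Rhau KO against 40.0 and 72.3 in Control, and there the groups overlapped.

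All 5 Bcl2l11 probe sets had the higher mean in Rhau KO, also under median centring and quantile normalization. They are not independent readings. Probe sets 1456005_a_at and 1456006_at were designed on the same source sequence, and so were 1435448_at and 1435449_at. The average over all 5 gave a log2 difference of 0.90 (SE 0.36), with a 95% interval of -0.04 to 1.84 and an adjusted p of 0.887. The dim probe set 1456006_at weighs on this average. Over the 3 probe sets with a mean intensity of 100 or more it was 0.62 (SE 0.22), with an adjusted p of 0.836. Both averages were added after the values had been seen.

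Control replicate 1 was the lowest array on 4 of the 5 Bcl2l11 probe sets. Without it, 1456005_a_at differed by 0.64 (SE 0.18) on the log2 scale, with a 95% interval of 0.20 to 1.09 and an adjusted p of 0.312. The lone Control array is then assumed to vary like the Rhau KO arrays. The difference on 1435449_at was 0.62 without that array, and on 1435448_at it was 0.27. On 1456006_at it was 1.60, which no longer passed an unadjusted p under 0.05. The average over the 5 probe sets was 0.59 (SE 0.26), with an adjusted p of 0.504, and over the 3 brighter ones it was 0.51 (SE 0.19), with an adjusted p of 0.256. On 1426334_a_at the difference was -0.19.

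Without Control replicate 2, the array with raised heat shock transcripts, 1456005_a_at differed by 0.90 on the log2 scale with an adjusted p of 0.0300. That contrast sets the Rhau KO arrays against the array that carries skeletal muscle transcripts, and 14% of all probe sets passed it. The part of either Control array's composition in the Bcl2l11 result was not tested beyond these values. Rhau KO was above Control replicate 2 alone on 4 of the 5 probe sets and above Control replicate 1 alone on all 5.

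**Figure D2:**
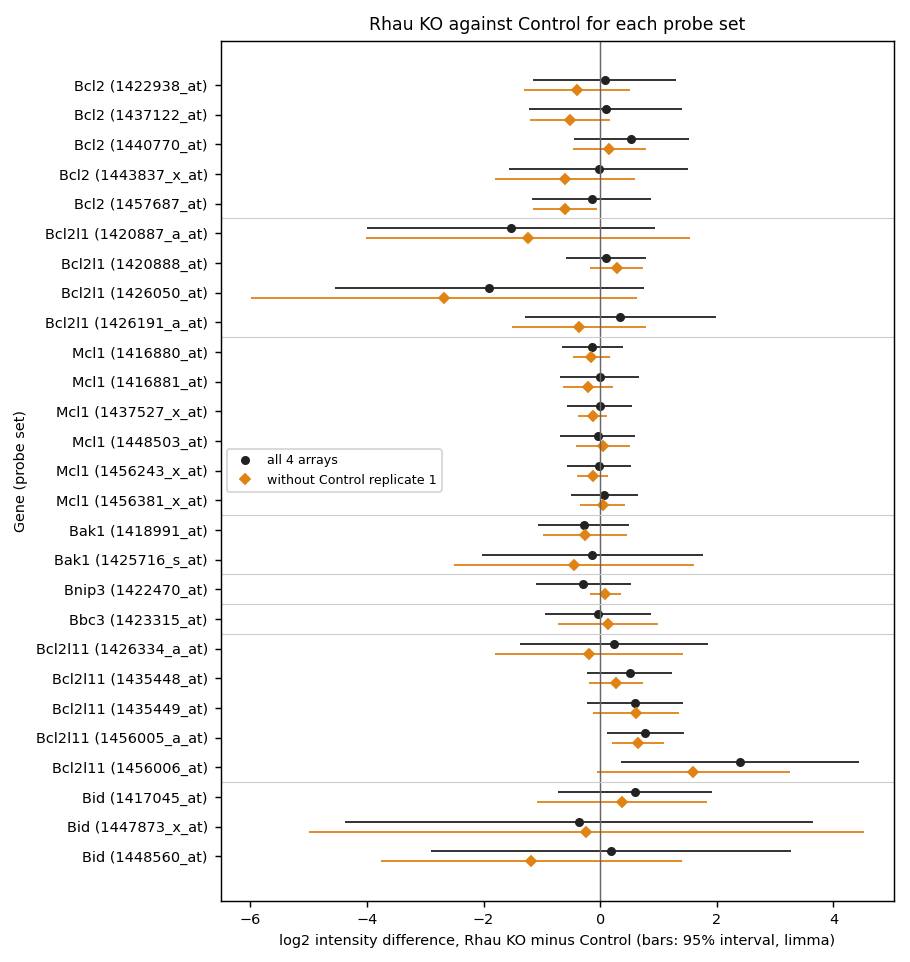
Difference in log2 intensity, Rhau KO minus Control, for the 27 member probe sets, with all 4 arrays (black circles) and without Control replicate 1 (orange diamonds). Bars are 95% intervals from limma. With all arrays the interval lies above 0 only for Bcl2l11 1456005_a_at and 1456006_at, and the widest intervals belong to dim probe sets of Bcl2l1 and Bid.

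Of the antiapoptotic members, Mcl1 was the most evenly measured. Its 6 probe sets differed by -0.13 to 0.07 on the log2 scale, and their 95% intervals lay within -0.68 to 0.67. Only 1416880_at had groups that did not overlap. It read 3742 and 4334 in Rhau KO against 4362 and 4481 in Control, so Rhau KO replicate 2 was almost level with Control replicate 1. Its difference was -0.13 (SE 0.20). The average over the 6 probe sets was -0.02 (SE 0.22), with a 95% interval of -0.60 to 0.55, which leaves room for a change of up to about that size in either direction. The average was -0.09 without Control replicate 1, with an interval of -0.45 to 0.27.

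Bcl2 varied more between the Control arrays than between the labels. Control replicate 1 was the lowest array on 5 of 5 Bcl2 probe sets and Control replicate 2 the highest on 4. Probe set 1457687_at read 366 and 460.4 in Rhau KO against 332 and 623 in Control. Both Rhau KO arrays fell between the Control arrays. The log2 difference was -0.15 (SE 0.39) with all arrays. Without Control replicate 1 it was -0.60 (SE 0.22), with a 95% interval of -1.15 to -0.06 and an adjusted p of 0.407. Without Control replicate 2 it was 0.31.

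The same turn of sign was seen on most Bcl2 probe sets. Without Control replicate 1, 4 of the 5 had the lower mean in Rhau KO, and without Control replicate 2 all 5 had the higher mean, by 0.31 to 0.91. Probe set 1440770_at was the exception with groups that did not overlap. It read 266 and 249 in Rhau KO against 137 and 230.3 in Control. The Rhau KO arrays were higher, but Control replicate 2 lay just under them, and the difference was 0.53 (SE 0.38) with all arrays and 0.16 without Control replicate 1. The sign of the all-array difference on 1422938_at and 1437122_at turned under median centring. No direction can be given for Bcl2 from these arrays.

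Bcl2l1, which encodes BCL-xL, gave probe sets that did not point the same way. Probe set 1420888_at read 574 and 662 in Rhau KO against 657 and 506 in Control, and its groups overlapped. Its log2 difference was 0.10 (SE 0.26), with a 95% interval of -0.59 to 0.78, and it changed sign under median centring. Probe set 1420887_a_at read 18.9 and 116 in Rhau KO against 166 and 110.3 in Control. Only Rhau KO replicate 1 was low there, and the difference of -1.53 (SE 0.95) rested on that array. Probe set 1426050_at read 2.81 and 2.50 in Rhau KO against 5.80 and 16.98 in Control. These groups did not overlap, but all 4 readings were at the bottom of the scale, and the difference of -1.90 had an SE of 1.02. On 1426191_a_at the groups overlapped.

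Bak1 was the 1 pore-forming effector with a named probe set. Probe set 1418991_at read 180.1 and 218 in Rhau KO against 244 and 237 in Control. Both Rhau KO arrays were lower, and replicate 1 was the lowest. The log2 difference was -0.28 (SE 0.30), with a 95% interval of -1.06 to 0.50 and an adjusted p of 0.897. It was -0.26 with Control replicate 1 left out. The other Bak1 probe set was under 100 on every array, and its groups overlapped. The planned comparison of Bax with Bcl2 within each array could not be made without a Bax probe set.

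Of the BH3-only members besides Bcl2l11, Bbc3 encodes PUMA, a p53 target. It read 139 and 149 in Rhau KO against 168 and 131 in Control. The Rhau KO arrays lay between the Control arrays. The log2 difference was -0.04 (SE 0.35), with a 95% interval of -0.95 to 0.87, and it was 0.14 without Control replicate 1. Bid, which is cleaved by caspase-8 and links death receptors to mitochondria, was under 100 on all arrays of its 3 probe sets. Probe set 1417045_at read 61.2 and 65.6 in Rhau KO against 35.5 and 49.0 in Control. The Rhau KO arrays were the higher pair, and the difference was 0.60 (SE 0.51), with an interval of -0.72 to 1.93. On the other Bid probe sets the groups overlapped.

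Bnip3 encodes a hypoxia-inducible protein of the outer membrane that recruits the autophagy machinery. Its single probe set read 11238 and 12485 in Rhau KO against 18773 and 11162 in Control. Control replicate 1 was the high array and the other 3 lay close together. It exceeded the mean of the others by 0.69 on the log2 scale. With all arrays the log2 difference was -0.29 (SE 0.32), with a 95% interval of -1.11 to 0.53. Without Control replicate 1 it was 0.09 (SE 0.11), with an interval of -0.18 to 0.35. Without Control replicate 2 it was -0.66. The direction for Bnip3 thus turned with the array that carries skeletal muscle transcripts, and the part of that tissue in the reading was not tested.

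Leaving out Control replicate 1 changed the family's count of higher means little, but single probe sets turned in direction. Bcl2 1422938_at and 1437122_at, Bcl2l1 1426191_a_at, Bcl2l11 1426334_a_at and Bid 1448560_at turned lower in Rhau KO. Mcl1 1448503_at, Bnip3 and Bbc3 turned higher. Without Control replicate 1, 11 of the 27 member probe sets had the higher mean in Rhau KO, where 52.8% of all probe sets did. An unadjusted p under 0.05 was reached by 2, Bcl2l11 1456005_a_at and Bcl2 1457687_at, against 10.9% of all. No member probe set passed a fold of 2 with that p, against 4.64% of all. None reached an adjusted p under 0.05, against 0.293% of all. With Control replicate 2 left out instead, the log2 difference was 0.90 on Bcl2l11 1456005_a_at and -0.66 on Bnip3.

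Control replicate 1 was the lowest of the 4 arrays on 15 member probe sets and on 37.5% of all. It was at least 2-fold from the mean of the other arrays on 4 member probe sets, against 32.9% of all. These 4 were Bcl2l1 1420887_a_at, where it was the higher, and Bcl2l1 1426191_a_at, Bcl2l11 1456006_at and Bid 1448560_at, where it was the lower. On Bcl2l1 1420887_a_at it read 166, against 116 in Rhau KO replicate 2 and 110.3 in Control replicate 2. There Rhau KO replicate 1, at 18.9, lowered the mean of the others. Control replicate 2 was at least 2-fold from the others on 2, Bcl2l1 1426050_at and Bid 1448560_at, against 23% of all.

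**Figure D3:**
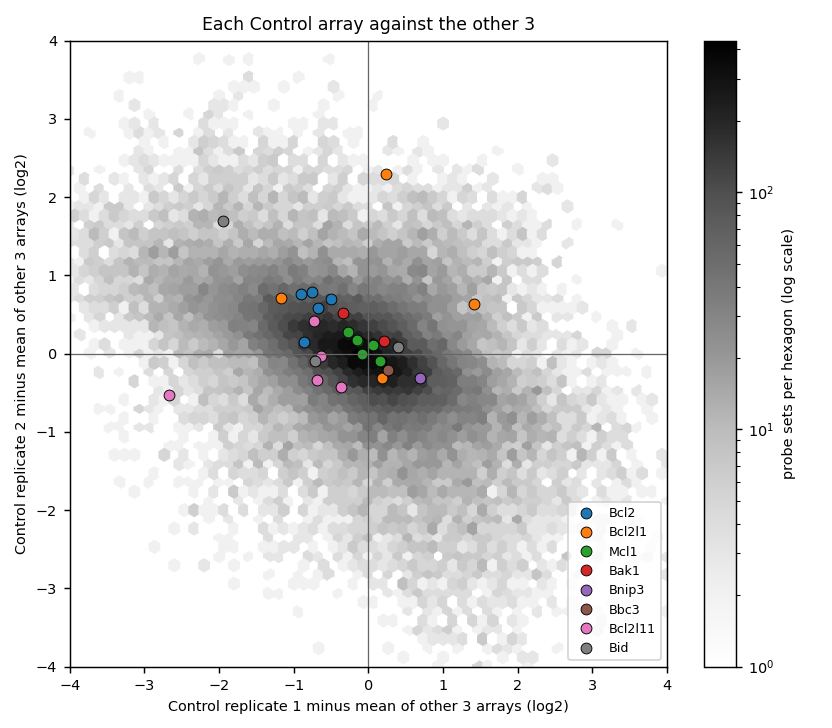
Log2 intensity of Control replicate 1 (x axis) and of Control replicate 2 (y axis), each minus the mean of the other 3 arrays, for all probe sets (grey hexagons, log scale of number) and the member probe sets (coloured points). The axes end at -4 and 4 and probe sets beyond them are not drawn. Bcl2 lies in the upper left, Bnip3 at 0.69 to the right, Mcl1 near the origin, and Bcl2l11 left of 0 on the x axis.

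Genes that act with the family were described from 5 lists, each gene on its brightest probe set with a single symbol. The shares given beside the lists are over all probe sets, dim ones included, and were not computed for brightest probe sets alone. Of 72 listed genes, 62 were measured. With all arrays 46 of these were higher in Rhau KO, where 56.6% of all probe sets were. Their median log2 difference was 0.12, against 0.09 over all probe sets. Without Control replicate 1, 30 were higher, where 52.8% of all probe sets were, and the median was -0.01. At a fold of 2 and an unadjusted p under 0.05, 1 passed as higher and 1 as lower, where the same 3.36% of all probe sets passed in either direction, and none had an adjusted p under 0.05. Without Control replicate 2, 12 of the 62 passed the fold and that p, against 15.6% of all probe sets.

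Among other BCL2 relatives, 8 of 12 measured genes were higher in Rhau KO with all arrays and 5 of 12 without Control replicate 1, and the median difference was 0.06. The 1 that passed was Bik, a BH3-only protein of the endoplasmic reticulum. It read 191 and 246 in Rhau KO against 82.0 and 128 in Control. Both Rhau KO arrays were higher. The log2 difference was 1.08 (SE 0.40), with an adjusted p of 0.892, and it was 0.76 without Control replicate 1, when Bik no longer passed.

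The apoptosome and caspase list holds, among others, genes that act after cytochrome c has left the mitochondria. It also holds inhibitors of caspases, such as Xiap, and genes of the death receptor route, such as Fadd. With all arrays 15 of 17 measured were higher in Rhau KO, against 56.6% of all probe sets, and 0 passed both the fold of 2 and the p. Without Control replicate 1, 12 of 17 were higher, against 52.8% of all. The median difference was 0.22, and 0.10 without Control replicate 1. The smallest p belonged to Aifm1, a flavoprotein of the mitochondrial intermembrane space. It read 4532 and 4599.6 in Rhau KO against 3006 and 3322 in Control. The groups did not overlap, and the difference was 0.53 (SE 0.20) with all arrays and 0.46 without Control replicate 1. Casp2, an initiator caspase, read 387 and 317 in Rhau KO against 508 and 922 in Control. Control replicate 2 was the highest by far, and the difference of -0.97 with all arrays did not pass, whereas that of -1.40 without Control replicate 1 did.

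All 11 genes of the membrane partner list were measured. The list also holds Bag1, Bag3 and Tmbim6, so not all are proteins of the mitochondrial membranes. Of the 11, 9 were higher in Rhau KO with all arrays and 7 without Control replicate 1, with 0 past the thresholds. The smallest p was that of Ppif, cyclophilin D of the permeability transition pore. It read 2638 and 2335 in Rhau KO against 445 and 1723 in Control. Control replicate 1 was far lower than the other 3, as it was for most of the ventricular markers, and the difference of 1.503 with all arrays was 0.53 without it. The part of that array's tissue content was not tested. Of the mitophagy and autophagy genes 9 of 13 measured were higher with all arrays and 5 without Control replicate 1, with a median of 0.06 and 0 past the thresholds. The mitophagy receptor Fundc1 had the smallest p. It read 1575 and 1600.5 in Rhau KO against 2311 and 2102 in Control. The Rhau KO arrays were the lower pair, and the difference was -0.47 (SE 0.20) with all arrays and -0.40 without Control replicate 1.

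Upstream transcription factors of the family split evenly, with 5 of 9 measured genes higher in Rhau KO, but 1 of 9 without Control replicate 1. Atf4, a factor of the integrated stress response, was the 1 that passed. It read 3417 and 2685 in Rhau KO against 7711 and 5387 in Control. Both Rhau KO arrays were lower. The log2 difference was -1.09 (SE 0.28), with an adjusted p of 0.892, and it was -0.83 without Control replicate 1, when it no longer passed the fold of 2.

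**Figure D4:**
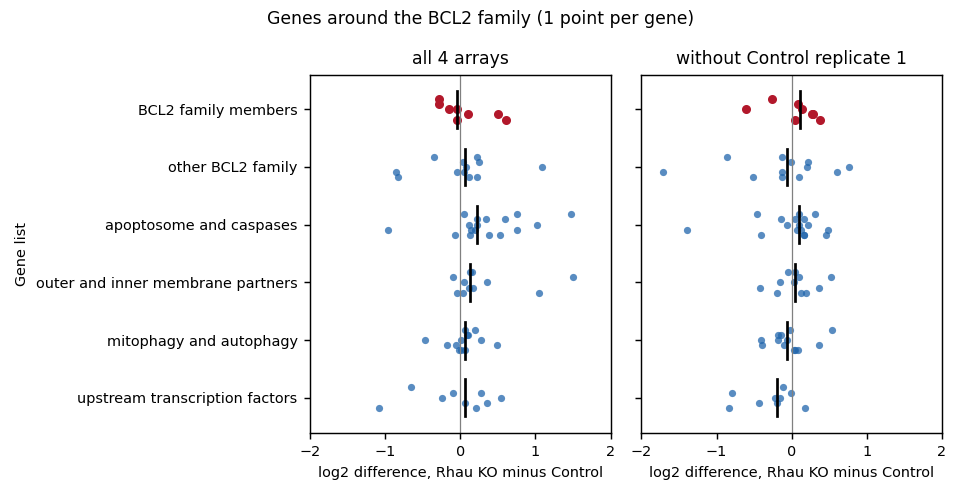
Log2 difference, Rhau KO minus Control, with all 4 arrays (left) and without Control replicate 1 (right), for the member genes on their brightest probe set (red) and the genes of the 5 lists (blue), 1 point per gene with the median as a black bar. The median of the apoptosome and caspase list is 0.22 on the left and 0.10 on the right, and points on both sides of 0 appear in every list.

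The genes whose pattern over the 4 arrays was nearest to Bcl2l11 1456005_a_at were Mtm1, Airn and Rab2b. Likeness was the root mean square distance between log2 intensities, each centred on its own mean, and was 0.03, 0.03 and 0.04. Mtm1, a phosphoinositide phosphatase, read 426 and 375 in Rhau KO against 214 and 264 in Control. With 4 arrays such nearness is a description only.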

How the data were processed

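Labelled RNA from 4 mouse heart samples was hybridised to Affymetrix whole-genome mouse arrays, and the deposited intensity values were made by the authors with the MAS 5.0 algorithm, which scales each array to a common level. The depth of an array is not counted, and the number of arrays limits the precision. The median intensity per array was 80.5 to 91.7, and 51.8% to 54.0% of probe sets lay under 100, the level called dim. Of 45101 probe sets, 64 controls were left out. By the platform annotation 34958 had 1 symbol, 932 had several and 9211 had none. Probe sets with several symbols were not named.

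The deposited intensity values were log2-transformed and fitted with limma 3.58.1 in R 4.3.3 (lmFit, eBayes with trend), Rhau KO minus Control, with Benjamini-Hochberg adjustment over all 45037 probe sets. The thresholds of the study's array heatmap legend, a fold of 2 and p of 0.05, were also counted. The code was tested on simulated data. Members are given on every probe set, in full where the groups did not overlap or the thresholds were passed. Of each list, genes past the thresholds, or the one with the smallest p, are named, and Casp2 was added after its values were seen. The members and lists were chosen with earlier results of these data known. Alternatives were quantile normalization, median centring, a pseudocount of 32, no trend, the brighter part of the probe sets, the brightest probe set per gene, a replicate block, the methods' t-test and each array left out. The means over a gene's probe sets, all or those of 100 or more, were chosen after seeing the data. No genome build was given with the values, so no coordinates are printed.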

Additional observations from a re-analysis of the deposited data

How the results depend on the processing

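No member probe set reached an adjusted p under 0.05 under any setting that kept all 4 arrays. With 1 array left out, member probe sets passed only without Control replicate 2, a contrast with a single Control array. These were Bcl2l11 1456005_a_at, with a log2 difference of 0.90, and Bnip3, with -0.66. The share of all probe sets that passed that contrast is given above. The count at a fold of 2 and p of 0.05, 1 with all arrays (Bcl2l11 1456006_at), was 2 with no trend (with Bcl2l1 1426050_at) and 0 among the brighter part of the probe sets, on the brightest probe set per gene and by the methods' t-test, and 0 to 1 with 1 array left out. The brighter part and the brightest probe set leave out the dim probe sets. Of the probe sets they kept, 8 of 18 and 3 of 8 were higher in Rhau KO, against 13 of 27, and 10 to 20 of 27 were higher with 1 array left out. List genes past the thresholds, 2 with all arrays (Bik and Atf4), numbered 0 with no trend, 1 with a pseudocount of 32, 1 on the brightest probe set per gene, 0 by the methods' t-test and 0 to 12 with 1 array left out. The 12 came without Control replicate 2, where 15.6% of all probe sets passed. The causes were not tested.

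The replicate 1 minus replicate 2 differences of the 2 labels had a correlation of 0.00 over probe sets. The Control arrays also differ in skeletal muscle and heat shock transcripts. The correlation therefore cannot decide whether same-numbered arrays deviate together. With a replicate block, 0 member probe sets had an adjusted p under 0.05, 1 passed the thresholds, 13 were higher, and 2 list genes passed. Quantile normalization, median centring and the pseudocount gave 81 values of single probe sets, of which 79 lay within 1 SE of the reported ones. The other settings with all arrays change the test and not the difference. The exceptions, Bcl2l1 1426050_at and Bcl2l11 1456006_at with a pseudocount, are dim. With 2 arrays a group, small changes cannot be told from none.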
